A study of Mus musculus with 16 samples.

Results

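Occupancy of Cdk8 was compared between mouse neural progenitor cells that had received an siRNA against Cbx3 and cells that had received a control siRNA against luciferase. The members were all 50 bp windows of the 2 deposited Cdk8 lists, joined into 1 region where no more than 200 bp separated them. This gave 5574 regions under control siRNA and 6094 under Cbx3 siRNA, out of 605681 regions summed over the 9 lists of the series. Joined across both lists, they formed 10859 regions, of which 787 held windows of both siRNA arms, 4778 of the control alone and 5294 of the Cbx3 siRNA arm alone. Regions of 1 window were kept apart from regions of 2 or more windows, called multi-window regions here.

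The cells were V6.5 embryonic stem cells differentiated through embryoid bodies for 4 days and plated in ITSF medium as a monolayer. Both siRNA groups were transfected 72 hours before harvest and crosslinked with 1% formaldehyde, and chromatin was precipitated with the anti-Cdk8 antibody sc-1521. Med26 and Pol II were mapped in cells given the same siRNAs, and Cbx3 (2 libraries, sets 1 and 2) and Pol II in cells with no treatment. Each siRNA arm had 1 Cdk8 library, so nothing below has a replicate check, no p-value is given, and every difference is between 2 libraries. All groups were a single cell line, the level of Cbx3 after the siRNA was not analysed here, and the inputs were not used. The listed windows summed to a signal of 160213 under control and 177863 under Cbx3 siRNA, but the depth of either library is unknown, since the files list windows above a minimum only. Positions are in the mouse build mm9, and the neural identity of the cells was not checked, as no gene was assigned.

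Cdk8 is the kinase of the Mediator kinase module, a detachable part of the Mediator coactivator in which it works with cyclin C, Med12 and Med13. The module binds Mediator reversibly, controls its contact with RNA polymerase II (Pol II) and phosphorylates transcription factors. It can act for or against transcription, depending on the gene. Med26 is a Mediator subunit that recruits elongation factors and is found mostly in Mediator without the kinase module. Cbx3 (HP1 gamma) is a chromodomain protein that reads methylated histone H3 and lies both in heterochromatin and over active genes.

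Most Cdk8 regions were a single window in both arms. Under control siRNA 3534 of 5574 regions were single windows (63.4%, 95% Wilson interval 62.1 to 64.7%), and under Cbx3 siRNA 3785 of 6094 (62.1%, interval 60.9 to 63.3%). The single windows held only 17.3% and 16.7% of the summed signal, the coverage-like value the authors gave each window. The median single window had a signal of 7.25 under control siRNA and 7.31 under Cbx3 siRNA, close to the lowest listed signal of 6.01 in both lists. Signals rose in steps from which the signal of 1 read was inferred as 1.41, so these medians correspond to 5.14 and 5.18 reads. Multi-window regions numbered 2040 and 2309, held 82.7% and 83.3% of the signal and had median highest windows of 9.82 and 9.70. Both classes were more numerous after Cbx3 siRNA, single windows at 107% and multi-window regions at 113% of the control number. All intervals here are taken over regions or windows and cover counting error only, since each arm has 1 library and its regions and windows are not replicates. Reads without molecular identifiers are also not independent molecules.

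Whether a Cdk8 region was found again in the other arm went with its width. Of the single windows of the control, 48 of 3534 were listed after Cbx3 siRNA (1.36%, interval 1.03 to 1.80%), and of the single windows of the Cbx3 siRNA arm, 46 of 3785 were listed in the control (1.22%, interval 0.912 to 1.62%). Of the multi-window regions, 585 of 2040 were found again after Cbx3 siRNA (28.7%, interval 26.8 to 30.7%) and 590 of 2309 in the control (25.6%, interval 23.8 to 27.4%). In the control list the share climbed from 8.67% at 2 windows to 37.6% at 3, 64.8% at 4 to 5 and 89.4% at 6 to 10 windows. All 36 control regions and all 37 Cbx3 siRNA regions of 11 or more windows were listed in the other arm. In the Cbx3 siRNA list it was 6.42% at 2 windows, 30.1% at 3, 59.5% at 4 to 5 and 89.2% at 6 to 10, lower than in the control list up to 5 windows, with overlapping intervals at each width. No region above 10 windows was seen in 1 arm alone. The lowest value that the Wilson interval allows for these widest regions is 90.4% for the control and 90.6% for Cbx3 siRNA.

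**Figure D1:**
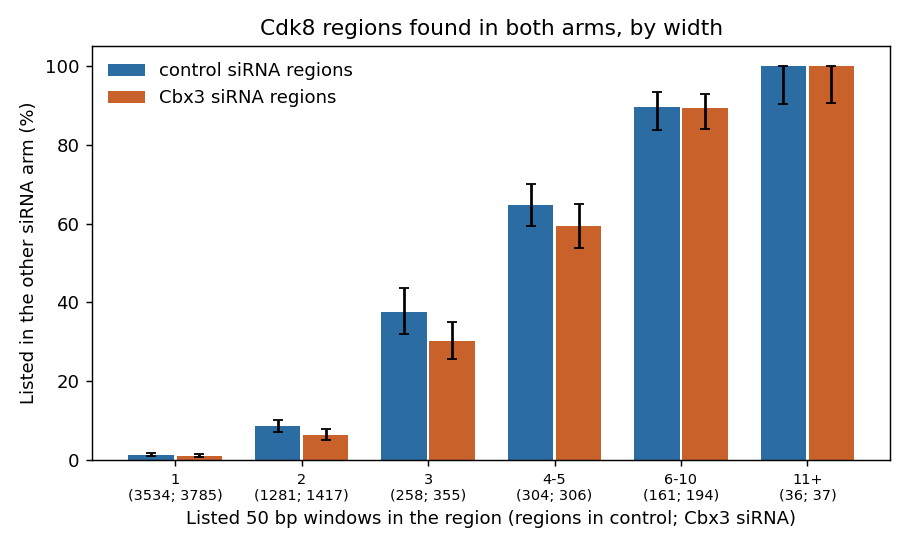
Share of Cdk8 regions listed in the other siRNA arm (y axis, percent) by the number of listed 50 bp windows (x axis, with the number of regions in the control and the Cbx3 siRNA list), error bars are 95% Wilson intervals. Both arms climb from 1.36% and 1.22% at 1 window to 100% at 11 or more windows.

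The regions found in both arms were few but strong. The 633 control regions listed again made up 63.8% of the summed control signal, and the 636 Cbx3 siRNA regions listed in the control 62.4% of that library's signal. A single stretch, on chromosome 17 from 39979951 to 39985850 and listed in all 9 libraries, held 21806 of the 160213 in the control. After Cbx3 siRNA it held 25969 of the 177863. Among multi-window regions the median highest window was 21.3 for control regions of both arms and 8.72 for regions of the control alone, or 15.1 against 6.18 reads. Under Cbx3 siRNA these medians corresponded to 14.9 and 6.30 reads. The highest window of a region found in 1 arm alone thus mostly stood close to the minimum of the lists.

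Signal and width each went with being listed again. In multi-window control regions the share was 3.08% below a signal of 7, 3.98% from 8 to 9, 28.4% from 11 to 15, 79.0% from 15 to 25 and 99.2% (246 of 248) from 25 upward. In the Cbx3 siRNA list it was 27.8% from 11 to 15, 78.9% from 15 to 25 and 98.05% (252 of 257) from 25 upward. Single windows of like signal did not reach these shares. From 11 to 15 only 4 of 51 single control windows (7.84%, interval 3.09 to 18.5%) and 9 of 76 of the Cbx3 siRNA arm (11.8%) were found again. From 25 upward it was 1 of 9 (11.1%, interval 1.99 to 43.5%) and 1 of 6 (16.7%, interval 3.01 to 56.4%).

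**Figure D2:**
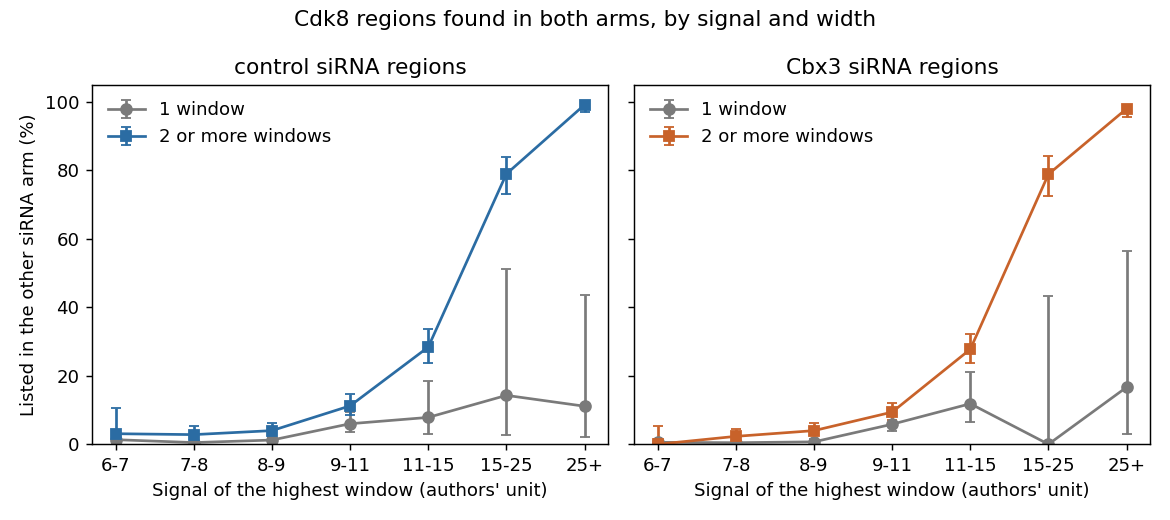
Share of Cdk8 regions listed in the other arm (y axis, percent) by the signal of the highest window (x axis), for regions of 1 window (grey circles) and of 2 or more (coloured squares), left the control and right the Cbx3 siRNA list, with 95% Wilson intervals. Above a signal of 25 the multi-window regions reach 99.2% and 98.05%, and the single windows 11.1% and 16.7%.

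A window absent from a list did not need to be weak. Of 1229 control windows with a signal of 25 or more, 199 (16.2%, interval 14.2 to 18.4%) lay beside an unlisted window. Of the 208 unlisted neighbours, 98 were listed under Cbx3 siRNA, with a median signal of 23.6. Under Cbx3 siRNA 209 of 1317 such windows (15.9%) had an unlisted neighbour, and 71 of the 215 neighbours were listed in the control with a median of 20.3. The window test behind the lists is not given in the sources used here, so absence from a list is reported below as absence from the list, not as loss of Cdk8.

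At the 787 regions that held windows of both arms, the highest Cdk8 window was mostly within 2-fold between the 2 libraries, while the summed signal differed more. The log2 difference of the highest window, taken as Cbx3 siRNA minus control throughout, had a median of 0.06 (binomial interval of the order statistics 0.02 to 0.10), with 435 regions higher after Cbx3 siRNA. Of the 787 regions, 17 were higher by 2-fold or more (2.16%) and 18 lower by 2-fold or more (2.29%). By summed signal, which also counts how many windows each list holds, 131 were higher (16.6%) and 101 lower (12.8%) by 2-fold or more, with a median of 0.10 (interval 0.03 to 0.18) and an SD of 1.02 against 0.49 for the highest window. Among the 2461 windows listed in both arms, 54 were higher (2.19%) and 47 lower (1.91%) by 2-fold or more, and the median was 0.10 (interval 0.08 to 0.12). The width classes had similar medians, with 0.05 at the 581 regions of 2 or more windows in both arms and 0.06 at the 206 with a single window in at least 1 arm. A region enters this comparison if both lists hold a window in it, at the same place or joined across gaps of up to 200 bp. This is wider than the overlap used for the 633 control and 636 Cbx3 siRNA regions found in the other list. Regions listed in 1 arm only are left out, among them any that fell below the minimum in the other. Across these regions the log2 signals of both arms had a Pearson r of 0.89 and a Spearman rho of 0.83, a description over regions of 2 libraries. The regions are not replicates.

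The spread of the differences is given beside the spread that counting error alone would give with the inferred reads, as a description of 2 libraries at regions held by both lists. Over all 787 regions the SD of the log2 differences was 0.49, and counting gave 0.63. At the 75 regions with a mean signal of 50 or more the SD was 0.29 against 0.30. From 25 to 50 the SD was 0.49 against 0.41 from counting (169 regions), and from 15 to 25 it was 0.56 against 0.57 (165 regions). Below 15 the observed SD was smaller than counting gives, 0.56 against 0.72 from 10 to 15 and 0.37 against 0.83 below 10, where the minimum of the lists bounds the values. The median difference did not follow signal in 1 direction. It was 0.08 (interval 0.00 to 0.13) at a mean signal below 10, 0.05 (interval -0.05 to 0.11) from 10 to 15, -0.08 (interval -0.17 to 0.01) from 15 to 25, 0.14 (interval 0.02 to 0.20) from 25 to 50 and 0.17 (interval 0.05 to 0.25) from 50 upward. With 1 library per arm, depth and pulldown cannot be told apart from the siRNA.

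**Figure D3:**
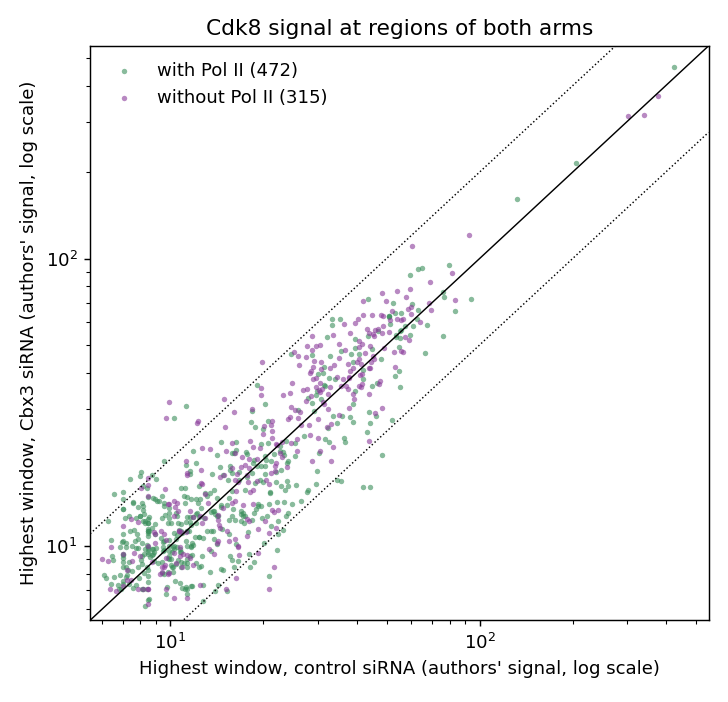
Highest Cdk8 window under control siRNA (x axis) and Cbx3 siRNA (y axis) at the 787 regions of both arms, in the authors' signal on log scales, green with and purple without Pol II under either siRNA; the solid line marks equal signal and the dotted lines 2-fold differences. Most points lie between the dotted lines, with 17 regions at or above the upper and 18 at or below the lower line.

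The largest differences between regions of both arms, among those with a mean signal of 15 or more, were these. On chromosome 15 from 44259251 to 44259600 the highest window went from 44.3 under control siRNA to 16.1 under Cbx3 siRNA (log2 difference -1.47), although the listed length grew from 150 to 350 bp. On chromosome 8 from 113443401 to 113443700 it went from 41.9 to 16.1 (-1.39) and on chromosome 7 from 19945851 to 19945950 from 21.7 to 8.46 (-1.36). In the other direction a region on chromosome 13 from 23589901 to 23590100 went from 9.87 to 31.6 (1.68). A region on chromosome 6 from 128748851 to 128749050 went from 9.65 to 27.95 (1.54), and one on chromosome 9 from 44689401 to 44689600 from 11.2 to 30.6 (1.44). Of these 6, only the region on chromosome 9 held Pol II in both siRNA arms and Med26 in both, with a Pol II signal of 17.4 and 18.3. These 6 were picked for their difference and are a description.

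The 10 widest Cdk8 regions, picked by listed windows summed over both arms, had similar highest windows in both. That choice favours regions that are wide in both lists, so their likeness in width is partly built in and is a description. The widest, on chromosome 17 from 39979951 to 39985850, had 5550 bp listed in each arm and highest windows of 425 under control and 464 under Cbx3 siRNA, and was the only Cdk8 region listed in all 9 libraries. On chromosome 1 from 173031851 to 173033400 1400 bp were listed under control and 1150 bp under Cbx3 siRNA, with highest windows of 55.4 and 52.9. On chromosome 11 a stretch held 4 of the 10 widest regions, from 68850351 to 68851550 (59.9 and 63.9), from 68853701 to 68855500 (59.6 and 78.2), from 68875701 to 68876750 (76.5 and 73.7) and from 68937601 to 68938850 (64.2 and 60.02). The others lay on chromosome 19 from 12085451 to 12086900 (47.05 and 55.7), chromosome 3 from 19527951 to 19529150 (39.4 and 48.9), chromosome 13 from 23591851 to 23593100 (49.02 and 48.99) and chromosome 7 from 26022701 to 26023700 (44.9 and 36.1). The log2 difference of these 10 ranged from -0.31 to 0.39, and no direction was shared by all of them. Pol II was absent from all 3 of its lists at 4 of the 10.

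The window profiles of a pair of these regions had similar summits in both arms. On chromosome 1 the control signal rose from 17.1 in the first window to 55.4 in the third, fell to 12.6 in the seventh and formed further summits at 32.8, 29.02 and 41.0. The Cbx3 siRNA profile had its summits at 47.2, 37.5, 28.1 and 52.9. On chromosome 11, from 68853701, the control summits were 43.6, 59.6, 55.4 and 31.8, and those of the Cbx3 siRNA arm 65.5, 78.2, 64.4 and 33.9. Each summit of that region was thus higher after Cbx3 siRNA, while on chromosome 1 the first was lower and the last higher.

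**Figure D4:**
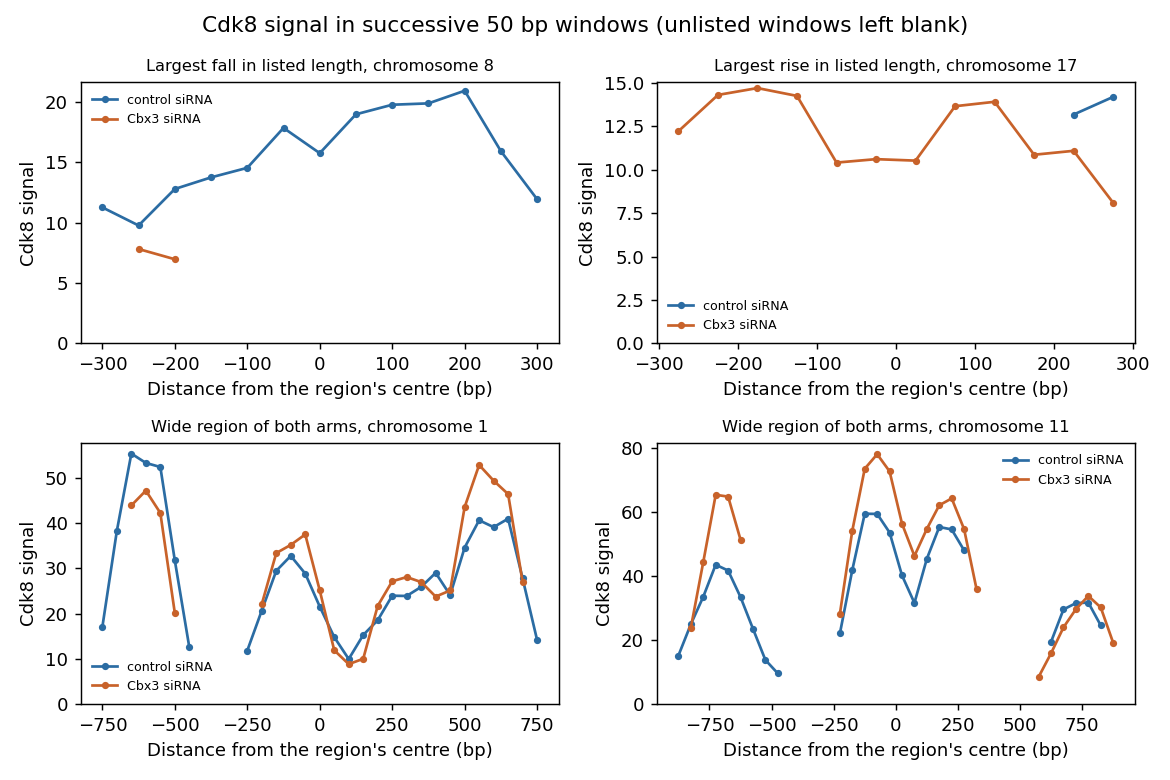
Cdk8 signal (y axis) in successive 50 bp windows against the distance from the region's centre in bp (x axis) under control (blue) and Cbx3 siRNA (orange), with unlisted windows left blank. The upper panels show the largest fall (chromosome 8, 650 to 100 bp) and the largest rise in listed length (chromosome 17, 100 to 600 bp), the lower panels 2 wide regions of both arms with similar summits (55.4 against 47.2 at the first of chromosome 1).

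Most regions with the largest change of listed length had low or moderate signal, with highest windows below 22 in 9 of the 10 falls and below 15 in 9 of the 10 rises. The 10 largest falls went from a median of 425 bp in the control to 0 bp, and 6 of them had no listed window after Cbx3 siRNA. Their leading member, on chromosome 8 from 112089351 to 112090000, had 13 control windows with signals from 9.76 to 20.9 and 2 windows of 7.81 and 6.97 after Cbx3 siRNA. Pol II at that region had a highest window of 11.8 in the control and 7.70 after Cbx3 siRNA, and Med26 was listed in the control only. At the next, on chromosome 7 from 51629201 to 51629800, Cdk8 reached 21.07 in the control, and Pol II went from 22.4 to 7.50. The region on chromosome 13 from 54795401 to 54796050 had 450 bp of Cdk8 with a highest window of 21.1 in the control and 50 bp with 11.7 after Cbx3 siRNA, while Pol II was 24.1 and 22.5. On chromosome 8 from 108384151 to 108384550 Cdk8 reached 21.4 over 400 bp in the control and was not listed after Cbx3 siRNA, with Pol II at 29.2 and 20.9. Pol II of both siRNA lists lay at 8 of the 10 falls. For comparison, it lay at 366 of 1455 multi-window regions of the control alone (25.2%), and at 13 of 17 of those with 6 or more windows. One of the 10 falls, on chromosome 2 from 98506451 to 98507450, had 1000 bp listed in the control and 650 bp after Cbx3 siRNA. Its summed signal went from 4651 to 3445, while the highest windows were 303 and 313. There the length and the summed signal fell, and the highest window did not.

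The 10 largest rises went from a median of 0 to 400 bp, and 8 were absent from the control list. The first, on chromosome 17 from 56904001 to 56904600, had 2 control windows of 13.2 and 14.2 at its end and 12 Cbx3 siRNA windows between 8.09 and 14.7, so the highest window hardly moved (log2 difference 0.05). Pol II there went from 23.7 to 9.20, in the direction opposite to the Cdk8 length. On chromosome 8 from 72566451 to 72566950 Cdk8 went from no listed window to 10 windows between 6.63 and 8.94, with Pol II at 52.7 in the control and 55.9 after Cbx3 siRNA. On chromosome 12 from 113204901 to 113205350 the highest Cdk8 window after Cbx3 siRNA was 12.3 and Pol II was 32.4 and 30.5. On chromosome 16 from 4879501 to 4879900 Cdk8 reached 9.62 and Pol II 34.9 and 28.1. On chromosome 4 from 133155651 to 133156000 Cdk8 reached 11.6 and Pol II 44.1 and 34.4. Control Med26 was listed at 5 of the 10 rises and at 2 of the 10 falls. For comparison, among regions of 6 or more windows it lay at 9 of 21 of the Cbx3 siRNA arm alone. Of the control alone it lay at 2 of 17. The last of the rises, on chromosome Y from 2883501 to 2883800, had no Pol II and a highest window of 125 that is listed after Cbx3 siRNA alone. Since these 20 regions were chosen by their listed length, their Cdk8 differences are a description and carry no weight as a finding.

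Regions of both arms were concentrated on chromosome 13, which held 102 of the 787. The 3 Mb from 21 to 24 Mb held 83 of them (10.5% of all regions of both arms). As background from outside the files, this part of mouse chromosome 13 is known for its large cluster of histone genes and for many transfer RNA genes. Regions were not assigned to genes here. The 32 regions of both arms from 23 to 24 Mb had median highest windows of 30.0 under control and 36.4 under Cbx3 siRNA, the 30 from 21 to 22 Mb of 35.4 and 42.5, and the 21 from 22 to 23 Mb of 20.1 and 26.2. Regions of 1 arm alone were few there, with 4, 5 and 4 in the control and 3, 1 and 1 in the Cbx3 siRNA arm. Over the 83 regions the median log2 difference was 0.20 (interval 0.12 to 0.31), against 0.03 (interval 0.00 to 0.08) at the other 704 regions of both arms. The 83 regions were also stronger, with median highest windows of 30.3 and 35.9 against 14.6 and 14.0. On chromosome 3 from 96 to 97 Mb 14 regions of both arms had a median difference of -0.02, and on chromosome 11 from 68 to 69 Mb 7 had 0.09.

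Pol II lay at few of the chromosome 13 regions. Only 2 of the 83 held Pol II under either siRNA (2.41%, interval 0.663 to 8.37%), against 470 of the 704 other regions of both arms (66.8%, interval 63.2 to 70.1%). These are regions joined over both lists and counted with Pol II of either siRNA. The shares by signal and width below instead count regions of 1 list with Pol II of that arm. No Med26 window was listed at any of the 83, of either siRNA.

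Over all chromosomes, the share of Cdk8 regions with Pol II was lower at high than at low Cdk8 signal in regions of both arms. In regions of 1 arm alone it was higher at high than at low signal, up to a signal of 25. These shares include the chromosome 13 stretch, where 2 of 83 regions of both arms held Pol II. The median highest windows there were 30.3 and 35.9, and the shares by signal were not recomputed without that stretch. Above 25 only 2 multi-window regions of the control alone and 5 of the Cbx3 siRNA arm alone were listed, none with Pol II of the same arm. Among multi-window control regions listed again, Pol II of the control lay at 21 of 29 (72.4%, interval 54.3 to 85.3%) below a Cdk8 signal of 9, at 47.4% from 15 to 25 and at 47 of 178 (26.4%, interval 20.5 to 33.3%) from 25 to 50. Among multi-window regions of the control alone it lay at 188 of 808 (23.3%, interval 20.5 to 26.3%) below 9 and at 29 of 46 (63.0%, interval 48.6 to 75.5%) from 15 to 25. In the Cbx3 siRNA list, read with its own Pol II, regions of both arms went from 53.6% below 9 up to 68.1% from 11 to 15 and down to 25.5% from 25 to 50, and regions of that arm alone from 23.8% below 9 to 70.1% from 11 to 15 and 74.4% (29 of 39) from 15 to 25. From 15 to 25 the interval of the regions of 1 arm alone lay above that of the regions of both arms for Cbx3 siRNA (58.9 to 85.4% against 36.7 to 52.6%), and both intervals overlapped in the control (48.6 to 75.5% against 40.1 to 54.8%).

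**Figure D5:**
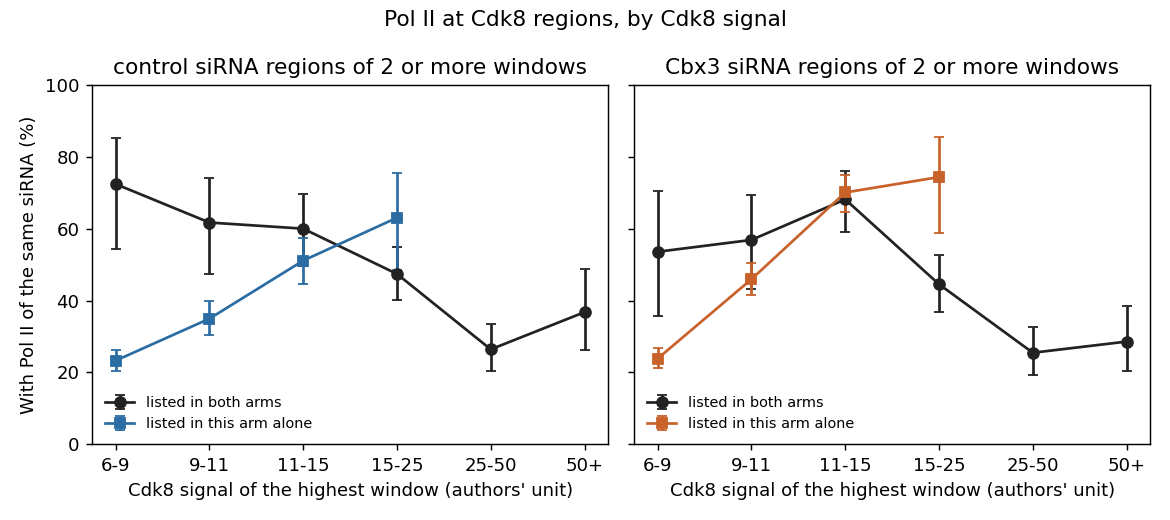
Share of multi-window Cdk8 regions with Pol II of the same siRNA (y axis, percent) by the Cdk8 signal of the highest window (x axis), for regions listed in both arms (black circles) and in 1 arm alone (coloured squares), with 95% Wilson intervals; classes under 20 regions are left out. Regions of both arms drop to 26.4% and 25.5% between 25 and 50, and regions of 1 arm alone rise to 63.0% and 74.4% between 15 and 25.

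Over all multi-window control regions, Pol II of the control lay at 258 of 585 found again (44.1%, interval 40.1 to 48.2%) and at 463 of 1455 of the control alone (31.8%, interval 29.5 to 34.3%). Under Cbx3 siRNA it was 42.9% and 39.2%, with overlapping intervals. The order depended on width. At 2 windows, which made up 1170 of the 1455 regions of the control alone, Pol II lay at 52.3% (interval 43.04 to 61.3%) of control regions of both arms and 25.4% (interval 22.97 to 27.96%) of the control alone, and under Cbx3 siRNA at 49.5% and 31.5%. At 3 windows it was 52.6% and 49.1% in the control and 52.3% and 58.1% under Cbx3 siRNA, with overlapping intervals. Among control regions of 4 to 5 windows Pol II lay at 73 of 107 of the control alone (68.2%, interval 58.9 to 76.3%) and at 72 of 197 of both arms (36.5%, interval 30.1 to 43.5%). Under Cbx3 siRNA it was 92 of 124 (74.2%, interval 65.8 to 81.1%) and 73 of 182 (40.1%, interval 33.3 to 47.4%). At 6 to 10 windows it was 14 of 17 against 64 of 144 in the control and 19 of 21 against 64 of 173 under Cbx3 siRNA. The regions of 1 arm alone at these widths were also weaker, with median highest windows of 11.5 against 24.1 at 4 to 5 control windows and 11.6 against 36.8 at 6 to 10. The regions of both arms include the chromosome 13 stretch, with Pol II at 2 of 83 regions. The shares by width were not recomputed without that stretch. Among single windows the order was that of the 2-window regions: Pol II lay at 410 of the 3486 of the control alone (11.8%, interval 10.7 to 12.9%) and at 30 of the 48 listed again (62.5%, interval 48.4 to 74.8%). Under Cbx3 siRNA it lay at 12.8% of single windows of that arm alone and at 16 of the 46 listed in the control (34.8%, interval 22.7 to 49.2%).

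Cdk8 regions of 1 arm alone were listed somewhat more often with Pol II of that arm than with Pol II of the other. Multi-window regions of the control alone held control Pol II in 463 of 1455 cases (31.8%, interval 29.5 to 34.3%) and Pol II of the Cbx3 siRNA arm in 383 (26.3%, interval 24.1 to 28.6%). Those of the Cbx3 siRNA arm alone held Pol II of that arm in 673 of 1719 cases (39.2%, interval 36.9 to 41.5%) and control Pol II in 639 (37.2%, interval 34.9 to 39.5%). Intervals of the second pair overlapped. At multi-window regions of both arms, control Pol II was listed more often than Pol II of the Cbx3 siRNA arm. It was 44.1% against 41.7% in the control list and 45.3% against 42.9% in the Cbx3 siRNA list, with overlapping intervals. The shares of each pair count the same regions against 2 lists and are not independent.

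Pol II signal was compared between the classes of Cdk8 listing, at Pol II regions listed under both siRNAs only. Over the 11325 such regions the median log2 difference was -0.29, with 411 regions lower by 2-fold or more (3.63%) and 63 higher (0.556%). At the 735 of them with Cdk8 in the control alone the median Pol II signal was 28.2 in the control and 22.8 after Cbx3 siRNA, a median difference of -0.32 (interval -0.34 to -0.28), with 21 lower by 2-fold or more (2.86%). At the 1066 with Cdk8 in the Cbx3 siRNA arm alone it was 28.5 and 23.1, again -0.32 (interval -0.34 to -0.29), with 38 lower by 2-fold or more (3.56%). At the 427 with Cdk8 of both arms the difference was -0.30 (interval -0.36 to -0.26), and at the 9139 with no listed Cdk8 it was -0.28 (interval -0.29 to -0.27). The 3 classes with Cdk8 had overlapping intervals. Over all 2186 regions with any Cdk8 the median was -0.32 (interval -0.33 to -0.30), apart from the interval without Cdk8. Of these, 1 was higher by 2-fold or more (0.0457%) against 62 of the 9139 (0.678%), and 72 were lower (3.29%) against 339 (3.71%). The regions without Cdk8 had weaker control Pol II (median 22.9 against 28.1) and a wider spread (SD 0.43 against 0.37). Whether signal or spread accounts for the difference was not tested. Across 365 regions with both factors listed in both arms, the Cdk8 and Pol II differences had a Pearson r of 0.05 and a Spearman rho of 0.03, a description over regions of the same 4 libraries.

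Med26 was listed at few Cdk8 regions of either class. In the control it lay at 32 of 585 multi-window regions found again (5.47%, interval 3.90 to 7.62%) and at 69 of 1455 of the control alone (4.74%, interval 3.76 to 5.96%). After Cbx3 siRNA, where the Med26 list itself was shorter (1745 against 5990 regions), it lay at 11 of 590 and 17 of 1719. Among Cbx3 siRNA regions of 6 or more windows, control Med26 lay at 9 of 21 of that arm alone (42.9%, interval 24.5 to 63.5%). Of both arms it lay at 7 of 210 (3.33%, interval 1.62 to 6.72%). In the control list these counts were 2 of 17 and 11 of 180, with overlapping intervals. Of Cdk8 regions joined over both lists that held control Med26, Med26 was also listed after Cbx3 siRNA at 8 of 68 multi-window regions of both arms (11.8%, interval 6.08 to 21.5%), 12 of 62 of the control alone (19.4%, interval 11.4 to 30.8%) and 7 of 85 of the Cbx3 siRNA arm alone (8.24%, interval 4.05 to 16.04%). These intervals overlap each other. For all control Med26 regions the share was 8.61% (interval 7.93 to 9.35%), below the interval of the control alone and inside the others. That share counts Med26 regions of any width and not Cdk8 regions, so it is an unlike measure.

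Counted over all multi-window regions, Cbx3 of untreated cells lay more often at Cdk8 regions found in both arms. Set 1 of Cbx3 covered 195 of 585 multi-window control regions found again (33.3%, interval 29.6 to 37.2%) and 310 of 1455 of the control alone (21.3%, interval 19.3 to 23.5%), and Cbx3 of both sets covered 10.4% (interval 8.20 to 13.2%) and 6.19% (interval 5.06 to 7.54%). Signal classes differed in this. Below a Cdk8 signal of 9 the set 1 shares were 31.03% and 13.6%, from 9 to 11 they were 40.4% and 25.5%, from 11 to 15 they were 42.2% and 39.2%, and from 15 to 25 they were 32.4% and 30.4%. The intervals were apart below 9 and overlapped in each of the other 3 classes. At 6 or more windows the order was the other way. Set 1 lay at 66 of 180 control regions of both arms (36.7%) and 8 of 17 of the control alone (47.1%), with overlapping intervals. Under Cbx3 siRNA it was 73 of 210 (34.8%, interval 28.6 to 41.4%) and 14 of 21 (66.7%, interval 45.4 to 82.8%). The Cdk8 difference itself was 0.17 (interval -0.06 to 0.28) at the 82 regions of both arms with Cbx3 of both sets and 0.05 (interval 0.00 to 0.10) at the 471 with neither set, with overlapping intervals.

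The strongest single windows of 1 arm alone all lay at windows of the untreated Cbx3 lists. The 5 highest of the control alone had signals from 40.8 to 173 and lay on chromosome 9 (from 3025501 to 3025550 the highest, then from 3026601 to 3026650 and from 3002401 to 3002450), chromosome 2 (from 98505351 to 98505400) and chromosome Y (from 2892651 to 2892700). The 5 highest of the Cbx3 siRNA arm alone lay on chromosome 15 from 74917251 to 74917300 (114), on the mitochondrial genome from 15451 to 15500 (112), on chromosome Y from 2781901 to 2781950 (99.7) and from 2889301 to 2889350 (97.1), and on chromosome 11 from 3046951 to 3047000 (56.9). None of the 10 held Pol II or Med26 in any list, and all 10 held Cbx3 of set 1, 9 also of set 2. Over all single windows of 1 arm alone Pol II of the same arm lay at 11.8% and 12.8%, Med26 at 1.43% and 0.187% and Cbx3 of set 1 at 7.23% and 8.42% (control and Cbx3 siRNA), so 0 of 10 for Pol II and Med26 is close to the shares of the class. The highest Cbx3 signal of set 1 at them ranged from 331 to 1109, and at the strongest of the 10 it was 670 in set 1 and 10783 in set 2. Signal not particular to Cdk8 was not tested at these sites, since the inputs were not used.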

How the data were processed

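Per the submitters' processing notes, reads were aligned with Bowtie to the genome build mm9. The deposited files give, per 50 bp window, a signal made by the authors; how windows were tested, scaled or set against inputs is not given in the sources used here. Only windows above a minimum are listed, so library depth is unknown. In both Cdk8 files every value was a whole multiple of 1 step (0.0282, to within 0.05 of a step). The signal of 1 read was read as 50 steps, since multiples of 50 steps made up 21.8% and 20.9% of values. Windows no more than 200 bp apart were joined, a region's signal is that of its highest window, and an overlap needs 1 bp. Shares carry 95% Wilson intervals. Differences of 2-fold were counted with no test, as each arm has 1 library. Named regions were the 10 largest falls and rises in listed length, the 10 with most windows and the 5 highest single windows of each arm alone. The 6 regions with the largest signal difference were added after their values were seen. The members and lists were chosen with earlier results of these data known. Genes, gene lists and sequences were not used here, because the gene table used is of another build. The joining and overlap steps were tested on simulated data. Computations ran in Python 3.11.15 with pandas 2.3.3 and numpy 2.4.6, intervals in scipy 1.17.1 and figures in matplotlib 3.10.9. Coordinates count from 1, as in the files.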

Additional observations from a re-analysis of the deposited data

How the results depend on the processing

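Each alternative changed 1 choice. Only 1 was chosen after seeing the data, leaving out the 211 Cdk8 regions listed in 6 or more of the 9 libraries. Of the 88 alternative values, 55 stayed within the counting interval of the reported value (counts within 1.5 times) and 33 moved outside it. A direction was defined only for the ratios of counts and the median log2 differences, and none of these reversed. The shares have no direction of their own, and the order between shares could change, as given below for a pair of unlike Pol II shares. In the values below, the 6 shares of regions found in the other arm come in the order control all, single-window and multi-window, then Cbx3 siRNA all, single-window and multi-window. With the other arm listed within 1000 bp they were 15.9%, 5.63%, 33.8%, 14.8%, 4.94% and 30.9%. With windows at or above the median control signal they were 24.6%, 2.27%, 46.7%, 21.97%, 3.09% and 40.8%. Without the 6 stretches of 1 Mb with most control windows (chromosomes 13, 17, 11 and 3) the shares of all regions were 9.61% and 8.83%, those of multi-window regions 24.8% and 21.97%, the median log2 difference of shared windows was 0.047 against 0.10, and Pol II of both siRNAs lay at 41.9% of multi-window control regions found again against 34.5%. With 3 or more windows as multi-window the shares were 62.45% and 55.9%. With equal numbers of highest regions 11.4% of Cbx3 siRNA regions were in the control. Above the median mean signal the log2 difference of shared windows was 0.18. With untreated Pol II, the Pol II shares were 12.99%, 11.8% and 17.4% at multi-window regions of both arms, control alone and Cbx3 siRNA alone, and 3.67%, 4.23% and 20.8% at single windows of control alone, Cbx3 siRNA alone and both, where the reported values were 11.8%, 12.8% and, with Pol II of both siRNAs, 47.9%. With a Pol II overlap of at least 50% of the shorter region Pol II of both siRNAs lay at 27.5% of multi-window regions of both arms. Control Pol II then lay at 30.9% of those of the control alone, so the order of these 2 values as first counted (34.5% against 31.8%) was reversed. It was also reversed without the regions of 6 or more libraries (28.0% against 29.5%). Intervals overlapped within each of these 3 pairs. The values of a pair are unlike. Regions of both arms had to hold Pol II of both siRNAs, and those of the control alone only control Pol II. With control Pol II for both, the shares were 44.1% and 31.8%, and these were not recomputed under the alternatives. Without the regions of 6 or more libraries, 10.2% and 9.40% of all regions were found in the other arm, Pol II of both siRNAs lay at 28.0% of multi-window regions of both arms (reported 34.5%), and Pol II of the same arm at 36.6% of those of the Cbx3 siRNA arm alone (reported 39.2%). The cause of these moves was not tested, beyond the fewer or stronger regions that an alternative leaves by construction. No paired analysis was possible because Cdk8 was mapped in 1 library per siRNA, and no replicate could be left out. The median single window corresponded to 5.14 reads in the control, and library depth is unknown.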

Other observations

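Cdk8 regions of both arms had close neighbours more often than others. Another Cdk8 region of the same library lay within 10 kb of 212 of the 585 multi-window control regions found again (36.2%, interval 32.4 to 40.2%) and of 144 of the 1455 of the control alone (9.90%, interval 8.47 to 11.5%). Under Cbx3 siRNA it was 237 of 590 (40.2%) and 216 of 1719 (12.6%). For single windows of 1 arm alone it was 8.15% in the control and 8.53% under Cbx3 siRNA. The regions of both arms include the stretch on chromosome 13 from 21 to 24 Mb, with 83 of the 787 joined regions. The shares with neighbours were not recomputed without that stretch.

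The number of single Cdk8 windows per Mb, counted up to the last listed window of each chromosome, was highest on chromosome 8 of the 19 autosomes in both arms. It was 1.92 under control and 2.27 under Cbx3 siRNA, against autosome medians of 1.40 and 1.46, and chromosome 11 followed with 1.83 and 2.12. For regions of both arms chromosome 8 ranked 11 of 19, with 0.273 per Mb, and chromosome 13 was highest with 0.848. For control Pol II regions chromosome 8 ranked 6 of 19 and chromosome 11 was highest with 11.6 per Mb. Chromosome X had 0.120 and 0.1501 single Cdk8 windows per Mb and 5 regions of both arms. The cause of these values was not tested.

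Most single windows, and about as many as not of the multi-window regions of 1 arm alone, were in no other list of the series. Of 3391 merged single-window regions of the control alone, 2810 were in none of the other 7 lists (82.9%, interval 81.6 to 84.1%), and of 3659 of the Cbx3 siRNA arm alone 2948 were in none (80.6%, interval 79.25 to 81.8%). Of the 777 multi-window regions of both arms, 198 were in no other list (25.5%, interval 22.5 to 28.7%), and of multi-window regions of 1 arm alone it was 57.0% (interval 54.4 to 59.6%) for the control and 49.8% (interval 47.4 to 52.3%) for Cbx3 siRNA.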
